A study of Rattus norvegicus with 9 samples.

Results

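The interferon response genes examined here are 9 genes chosen by name, with earlier results of these data known. They are the interferon regulatory factors Irf1, Irf7 and Irf8 and the interferon-stimulated genes Ifit2, Ifit3, Isg15, Mx1, Mx2 and Rsad2. All 9 were present among the 37203 gene symbols of the deposited table, and all 9 were among the 15482 genes that had enough counts to be tested. They were read in superior mesenteric arteries (SMAs) of 8-week-old Sprague-Dawley rats, with 3 rats in each of the groups called normal, ischemia for 1 h (the early stage) and ischemia for 4 h (the late stage). Rats under pentobarbital anaesthesia were bled through a femoral artery to bring about hemorrhagic ischemia, and the hours run from the point at which this was complete. Whether the normal rats were anaesthetised or catheterised is not given in the sources used here, so ischemia and the procedure cannot be told apart. The labels number the rats of each group 1 to 3 and do not state whether equal numbers are linked.

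Total counts ran from 13114273 to 15504240 per library. Levels are given as CPM, counts scaled to library size with TMM factors, so that 1 CPM stood for 12.07 to 17.88 counts. All 10 smooth muscle markers were detected in every library, with Myh11 between 4688 and 23491 CPM, which alone does not show that the tissue was artery only. The libraries differed in nerve transcripts, since the summed level of 16 sympathetic nerve genes ran from 38.06 to 9336 CPM. That sum reached 9008 and 9336 CPM in replicates 1 and 3 at 1 h and 9211 CPM in replicate 3 at 4 h. These values are in bulk tissue, where more cells of a type and more RNA per cell cannot be told apart.

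Interferons are secreted proteins that cells release after sensing foreign nucleic acid or, for interferon gamma, after lymphocyte activation. Their receptors act through JAK kinases and STAT proteins, which enter the nucleus and bind a pair of short promoter elements. The interferon-stimulated response element (ISRE) is read by the complex that holds Irf9 and by other interferon regulatory factors, and the gamma-activated site (GAS) is read by STAT dimers. Irf7 amplifies the type I interferon response, Irf8 is a factor of the myeloid lineage, and Irf1 is induced both by interferon gamma and by cytokines that act through NF-kB.

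The promoters are shown first because those with a match differ in the element they hold. Of the 9 genes, 6 matched the RefSeq promoter table of rat assembly GRCr8, which gives 250 bases before and 50 bases after each gene's start, and Ifit2, Isg15 and Mx2 had no entry. The windows were searched on both strands for an ISRE core (GAAA, any 2 bases and GAAA again), a GAS core (TTCNNNGAA) and the NF-kB consensus. An ISRE core lay in 3 of the 6 windows and in 3.92% of all 33469 windows of this length. A GAS core lay in 2 of the 6, against 8.87% of all, and the NF-kB consensus in 1, against 4.18% of all. The stretches below run 5′ to 3′ along the gene's strand with the matches in capitals. They were taken from chr10:38417763-38417909 (+) for Irf1, chr19:65699074-65699161 (+) for Irf8, chr1:205800053-205800122 (-) for Irf7, chr1:241527252-241527321 (+) for Ifit3 and chr6:48788228-48788297 (-) for Rsad2, all in GRCr8.
Irf1: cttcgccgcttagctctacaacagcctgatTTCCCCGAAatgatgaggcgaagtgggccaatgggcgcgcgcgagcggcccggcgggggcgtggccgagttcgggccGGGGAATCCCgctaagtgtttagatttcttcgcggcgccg
Irf8: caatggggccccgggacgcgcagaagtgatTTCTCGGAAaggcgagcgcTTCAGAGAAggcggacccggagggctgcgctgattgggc
Irf7: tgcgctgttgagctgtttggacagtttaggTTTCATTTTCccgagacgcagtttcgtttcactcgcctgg
Ifit3: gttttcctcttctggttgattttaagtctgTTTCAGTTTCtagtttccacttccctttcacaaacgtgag
Rsad2: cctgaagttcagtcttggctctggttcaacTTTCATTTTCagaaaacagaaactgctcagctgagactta

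In Irf1 the first block of capitals is a GAS core that began 142 bases before the start site, and the second is the NF-kB consensus, which began 65 bases before it. Irf8 held 2 GAS cores, 180 and 161 bases before its start. The ISRE core, here on the opposite strand as TTTC, any 2 bases and TTTC again, began 69 bases before the start of Irf7, 44 before that of Ifit3 and 147 before that of Rsad2. The window of Mx1 held none of the 3 motifs. A match describes letters only, and binding was not measured.

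Before the members themselves, the counts of the interferons were examined, because the study asked which transcripts the artery altered in each stage of ischemia. Ifnb1, Ifna1, Ifna4, Ifna5, Ifnk and Ifnl3, which code for type I and type III interferons, had 0 counts in all 9 libraries. Ifna2 had 2 counts and Ifng 1 count, both in replicate 2 at 1 h, and 0 elsewhere. A count of 0 allows a level of up to 0.168 to 0.248 CPM, set by 3 counts per library and covering counting error only. The receptors were read throughout, with 733 to 1953 counts of Ifnar1, the type I receptor chain, and 1054 to 3884 counts of Ifngr1, the ligand-binding chain of the interferon gamma receptor.

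At 1 h of ischemia all 9 members were higher than in normal artery, although none reached the threshold for a call. The fitted differences ran from 0.55 to 2.59 on the log2 scale with a median of 1.46, where the median over all 15482 genes was -0.0076 and 49.4% of genes were above 0. Because the 9 were chosen with earlier results of these data known, the shares over all genes are no independent comparison. A call required more than a 1.5-fold change and an adjusted p under 0.05, and 0 of 9 members were called, where 0.0581% of all genes were. DESeq2 called 3 members (Irf1, Irf8 and Ifit3), against 0 with edgeR, but it also called 4.44% of all genes. At an unadjusted p under 0.05 there were 6 higher members (Irf1, Irf8, Ifit3, Isg15, Mx1 and Mx2) and 0 lower ones, where 16.7% of all genes passed, made up of 7.98% that were higher and 8.67% that were lower. Over the 3 groups together 0 members were called, where 0.0388% of all genes were, and 5 (Irf1, Irf8, Ifit3, Isg15 and Mx1) had an unadjusted p under 0.05, where 11.4% of all genes did. DESeq2 called 2 over the 3 groups (Irf1 and Ifit3), where it called 4.32% of all genes. The 3 libraries at 1 h lay above all 3 normal libraries in 3 members (Irf1, Irf8 and Ifit3), where 12.8% of all genes did so, and 0 lay below, where 13.5% did. Of the 6, 3 (Irf1, Irf8 and Ifit3) were at an unadjusted p under 0.05 without replicate 1 at 1 h, where 1788 of 15878 genes were. The same 3 were with a covariate for the nerve genes (their mean log2 CPM, called the nerve score), where 1485 of 15482 genes were.

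**Figure D1:**
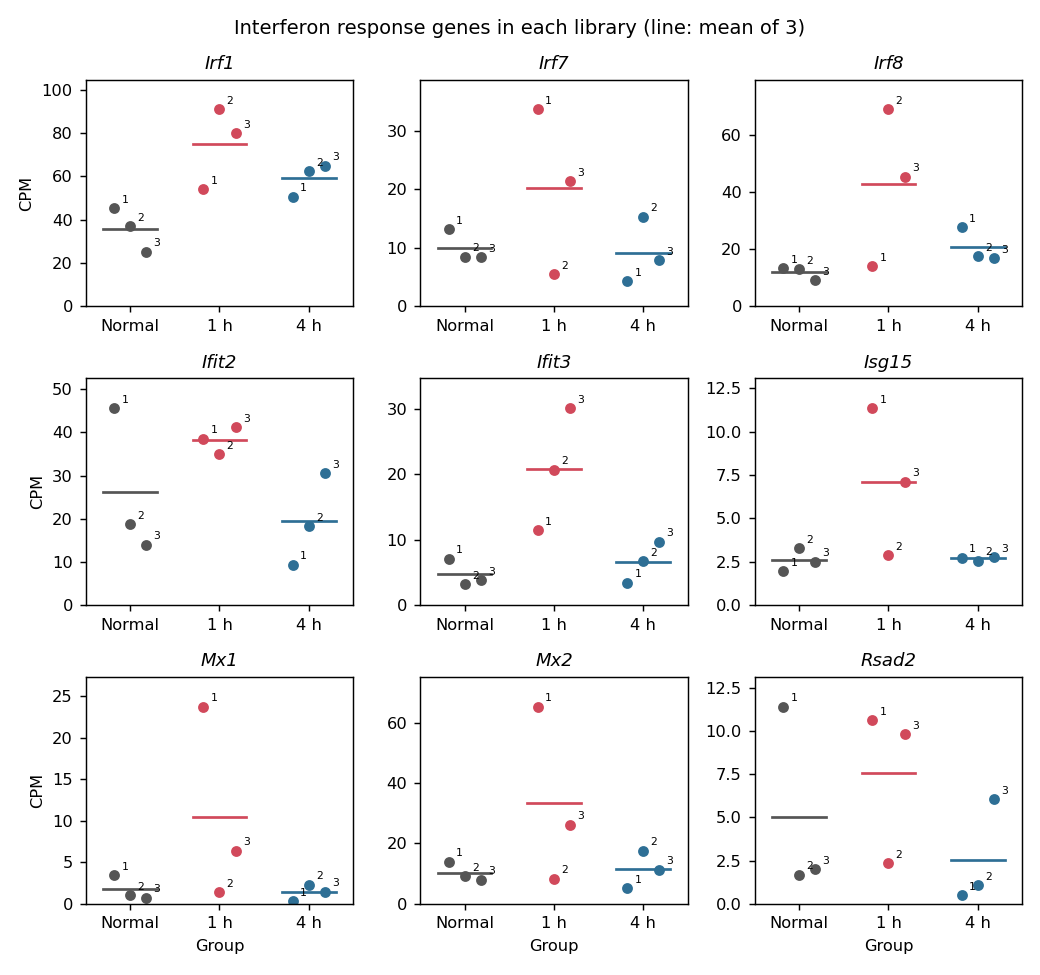
CPM (TMM-scaled, vertical axis from 0) of each of the 9 genes in each library, by group, with replicate numbers beside the points and a line at the mean of 3. Irf1, Irf8 and Ifit3 had all 3 libraries at 1 h above all 3 normal libraries, whereas Irf7, Isg15, Mx1 and Mx2 were highest in replicate 1 at 1 h.

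Irf1 was at 45.3, 37.1 and 25.2 CPM in normal rats, at 54.1, 91.0 and 80.0 CPM at 1 h, and at 50.6, 62.4 and 65.0 CPM at 4 h. Both ischemic groups lay wholly above the normal group, and they overlapped each other. At 1 h the level was 75.0 ± 19.0 CPM against 35.9 ± 10.1 CPM (SD, n = 3 each), a 2.09-fold difference. The log2 fold change was 1.06 (SE 0.27, adjusted p = 0.210 by edgeR's quasi-likelihood test with Benjamini-Hochberg adjustment, unadjusted p = 0.00417). At 4 h the level was 59.3 ± 7.66 CPM (SD, n = 3) and the log2 fold change 0.73 (SE 0.27, adjusted p = 0.330, unadjusted p = 0.0270). Irf1 had an unadjusted p under 0.05 at 1 h in each of the 9 fits that left out a library, where its log2 fold change ran from 0.86 to 1.27. With the nerve score as a covariate it was 1.05 (SE 0.33) at 1 h.

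Irf8, which directs the development of macrophages and dendritic cells, was at 13.4, 12.98 and 9.15 CPM in normal rats, at 14.0, 69.0 and 45.4 CPM at 1 h, and at 27.7, 17.6 and 16.8 CPM at 4 h. The groups at 1 h and 4 h both lay above the normal group, but replicate 1 at 1 h was close to normal replicate 1. The mean at 1 h was 42.8 ± 27.6 CPM against 11.9 ± 2.35 CPM (SD, n = 3 each). The fitted log2 fold change was 1.85 (SE 0.52, adjusted p = 0.224). At 4 h it was 0.80 (SE 0.51, adjusted p = 0.549). The early value became 1.32 when replicate 2 at 1 h was left out and 2.27 when replicate 1 was. The summed level of 13 macrophage markers did not have this order. It was 271.4, 65.8 and 154.6 CPM in normal rats, 138.4, 129.8 and 266.2 CPM at 1 h, and 52.9, 92.4 and 152.6 CPM at 4 h. Among these markers Cd14, a monocyte receptor, was like Irf8 high in replicates 2 and 3 at 1 h. Its levels were 15.3, 9.11 and 9.74 CPM in normal rats, 9.22, 27.4 and 38.1 CPM at 1 h, and 7.19, 9.36 and 7.72 CPM at 4 h. In each other marker of this list, replicate 2 at 1 h lay below normal replicate 1, the library with the highest sum. It lay above normal replicate 2, the normal library with the lowest sum, in all of them but Cd68 and Fcgr1a. Lyz2 was at 32.3 CPM in replicate 2 at 1 h, against 103 and 13.05 CPM in normal replicates 1 and 2. Fcgr1a was at 1.07 CPM there, against 5.03 and 1.09 CPM. A covariate for leukocytes, the mean log2 CPM of macrophage and lymphocyte markers, left Irf8 at 1.83 (SE 0.53) at 1 h, and the part of monocytes alone in its level was not tested.

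Ifit3, a member of the family of interferon-induced proteins with tetratricopeptide repeats, which act against foreign RNA, was at 7.10, 3.21 and 3.76 CPM in normal rats, at 11.4, 20.6 and 30.1 CPM at 1 h, and at 3.39, 6.71 and 9.70 CPM at 4 h. The group at 1 h stood above both of the others without overlap. Its mean was 20.7 ± 9.32 CPM against 4.69 ± 2.11 CPM in normal rats (SD, n = 3 each), a 4.40-fold difference. The log2 fold change was 2.14 (SE 0.52, adjusted p = 0.208, unadjusted p = 0.00324), which was the smallest unadjusted p among the 9 members. It ran from 1.77 to 2.57 when single libraries were left out, and it was 1.65 (SE 0.51) with the nerve score as a covariate and 2.20 (SE 0.36) with the leukocyte markers.

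Irf7, Mx1, Mx2 and Isg15 had another pattern, in which replicate 1 at 1 h was the highest of the 9 libraries. Mx1 and Mx2, dynamin-like GTPases that block viruses, are related in sequence, and reads could be split between them. Mx1 was at 3.41, 1.02 and 0.74 CPM in normal rats, at 23.7, 1.40 and 6.38 CPM at 1 h, and at 0.33, 2.32 and 1.45 CPM at 4 h. These levels stood for only 4 to 355 counts per library, so the lowest carried a large counting error. Mx2 was at 13.9, 9.19 and 7.97 CPM in normal rats, at 65.3, 8.35 and 26.1 CPM at 1 h, and at 5.20, 17.6 and 11.3 CPM at 4 h. In both genes replicates 1 and 3 at 1 h were above all normal libraries, while replicate 2 lay within their range.

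Irf7 was at 13.2, 8.46 and 8.41 CPM in normal rats, at 33.7, 5.48 and 21.4 CPM at 1 h, and at 4.30, 15.3 and 7.91 CPM at 4 h. Isg15, a ubiquitin-like protein that is joined to other proteins, was at 1.96, 3.28 and 2.51 CPM in normal rats, at 11.4, 2.87 and 7.12 CPM at 1 h, and at 2.73, 2.57 and 2.77 CPM at 4 h. Replicate 2 at 1 h was below all normal libraries in Irf7 and within their range in Isg15. At 1 h the log2 fold changes were 2.59 for Mx1 (SE 1.09, adjusted p = 0.294), 1.68 for Mx2 (SE 0.71, adjusted p = 0.294), 1.46 for Isg15 (SE 0.48, adjusted p = 0.248) and 1.01 for Irf7 (SE 0.66, adjusted p = 0.413). They depended on single libraries. Without replicate 1 at 1 h the values were 1.17 for Mx1, 0.73 for Mx2, 0.95 for Isg15 and 0.42 for Irf7. Leaving out replicate 2 at 1 h gave 3.11 for Mx1, 2.14 for Mx2, 1.84 for Isg15 and 1.46 for Irf7 (unadjusted p = 0.0251), and leaving out normal replicate 1 gave 3.56 for Mx1. Replicates 1 and 3 at 1 h were also libraries with a high nerve level. Replicate 3 at 4 h, with 9211 CPM of nerve genes, had Mx1 at 1.45 CPM and Mx2 at 11.3 CPM. A nerve covariate gave values at 1 h of 1.78 for Mx1 (SE 1.37), 1.28 for Mx2, 1.36 for Isg15 (SE 0.66) and 0.72 for Irf7, and none of these had an unadjusted p under 0.05. Beyond that fit the part of nerve content in these levels was not tested.

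**Figure D2:**
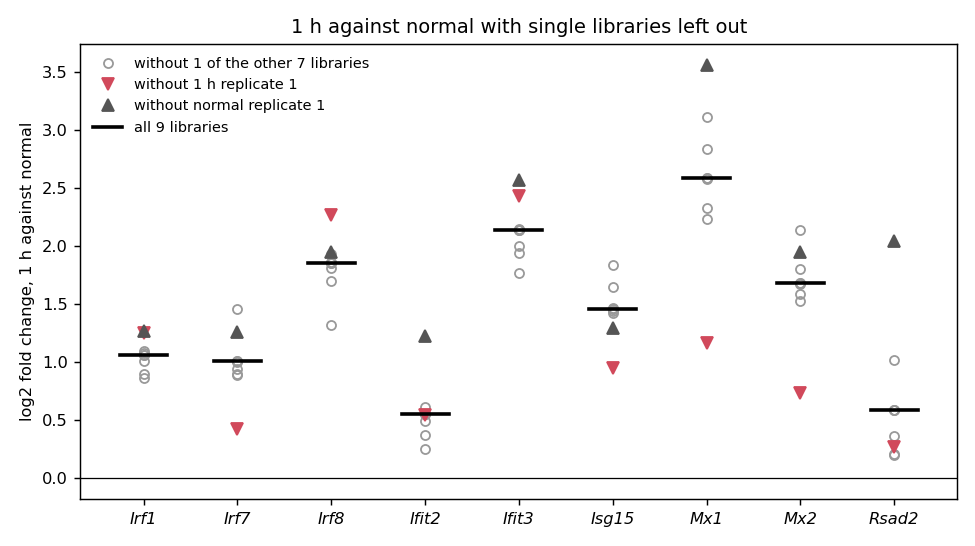
Log2 fold change at 1 h against normal for each gene (vertical axis) with all 9 libraries (black bar), without replicate 1 at 1 h (red triangle), without normal replicate 1 (dark triangle) and without 1 of the other libraries (open circles). Mx1 went from 2.59 to 1.17 without replicate 1 at 1 h, whereas Rsad2 went from 0.59 to 2.04 without normal replicate 1.

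Ifit2 and Rsad2 made up the remainder, and both were as high in normal replicate 1 as in ischemic artery. Ifit2, a relative of Ifit3, was at 45.6, 18.7 and 14.0 CPM in normal rats, at 38.6, 35.0 and 41.2 CPM at 1 h, and at 9.33, 18.3 and 30.6 CPM at 4 h. Rsad2, the gene of viperin, an enzyme that makes a chain-terminating nucleotide, was at 11.4, 1.68 and 1.99 CPM in normal rats, at 10.6, 2.34 and 9.82 CPM at 1 h, and at 0.50, 1.08 and 6.07 CPM at 4 h. At 1 h the log2 fold changes were 0.55 for Ifit2 (SE 0.52, adjusted p = 0.572) and 0.59 for Rsad2 (SE 1.07, adjusted p = 0.784), and in both genes the groups overlapped. Without normal replicate 1 they were 1.23 and 2.04. With the nerve score as a covariate they were -0.044 and -1.21.

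The level of these last genes was high where the summed smooth muscle level of the libraries was low. The summed level of the 10 smooth muscle markers was 11430 CPM in normal replicate 1, 13110 CPM in replicate 3 at 1 h, 24910 CPM in replicate 3 at 4 h and 25770 CPM in replicate 1 at 1 h, and it was between 47910 and 69630 CPM in the other 5 libraries. Rsad2 was at 6.07 to 11.4 CPM in the first set and at 0.50 to 2.34 CPM in the second, without overlap. Ifit2 was at 30.6 to 45.6 CPM in the first set and at 9.33 to 35.0 CPM in the second, where its highest value was replicate 2 at 1 h. This tilt was not particular to Ifit2 and Rsad2. Mx1 was at 1.45 to 23.7 CPM in the first set and at 0.33 to 2.32 CPM in the second. Mx2 was at 11.3 to 65.3 CPM and 5.20 to 17.6 CPM in the same order. Irf8 did not share it, at 13.4 to 45.4 CPM and 9.15 to 69.0 CPM. The share of all genes that separate the sets was not counted. Adipocyte markers divided the libraries into the same sets, with sums of 2498, 2405, 1116 and 2207 CPM in the first set and 359.5 to 1103 CPM in the second. Schwann cell sums (1115 to 3804 CPM against 218.2 to 1999 CPM) and exocrine pancreas sums (6.82 to 150.5 CPM against 7.10 to 177.6 CPM) overlapped between the sets. The part of tissue composition in the values of Ifit2 and Rsad2 was not tested beyond the fits with the nerve and leukocyte scores.

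**Figure D3:**
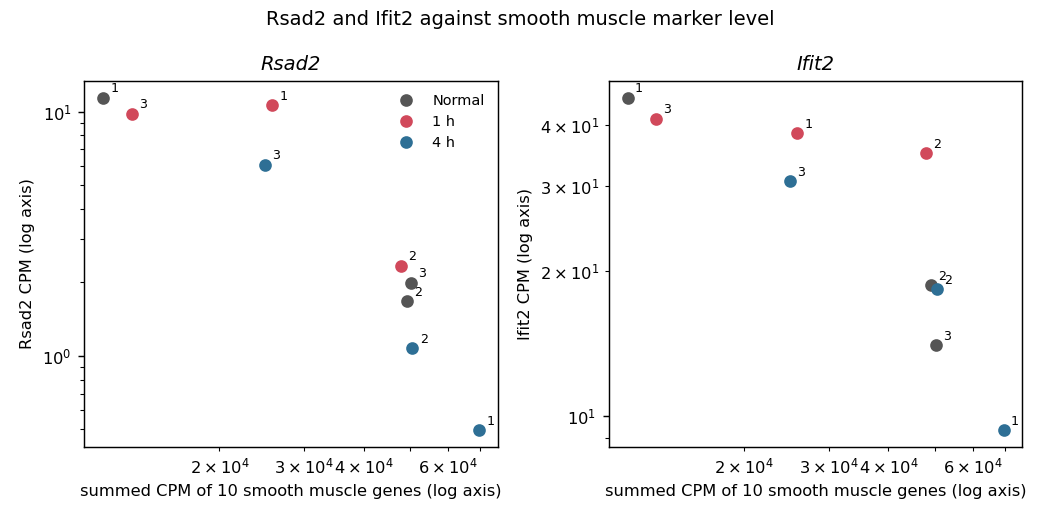
Rsad2 (left) and Ifit2 (right) in CPM against the summed CPM of 10 smooth muscle markers, both on log axes, 1 point per library, coloured by group and numbered by replicate. The 4 libraries with 25770 summed CPM or less had Rsad2 at 6.07 CPM or more, and the other 5 had it at 2.34 CPM or less.

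In the late stage, 4 h against normal, the members lay on both sides of the normal level. The fitted values were above 0 in 5 members and below 0 in 4, with a median of 0.060, where the median over all genes was 0.027 and 52.3% of genes were above 0. By edgeR 0 members were called, where 0.0904% of all genes were, and DESeq2 also called 0. At an unadjusted p under 0.05 there was 1 higher member (Irf1) and 0 lower, where 12.4% of all genes passed, made up of 5.07% that were higher and 7.35% that were lower. Leaving out either normal replicate 3 or the second library at 4 h brought that count to 0, where 1724 of 15932 and 1809 of 16045 genes passed. Library size as the only scaling also gave 0, where 2011 of 15482 genes passed. Without replicate 3 at 4 h it was 1, which was then Rsad2, where 1855 of 15945 genes passed. The libraries at 4 h lay above all normal libraries in 2 members (Irf1 and Irf8), where 7.93% of all genes did, and below them in 0, where 10.8% did. The remaining log2 fold changes at 4 h were 0.49 for Ifit3 (SE 0.51), 0.14 for Mx2 (SE 0.70), 0.060 for Isg15 (SE 0.48), -0.13 for Irf7 (SE 0.65), -0.34 for Mx1 (SE 1.07), -0.43 for Ifit2 (SE 0.52) and -0.97 for Rsad2 (SE 1.08). In all 7 the groups overlapped. Irf7, Ifit2, Mx1 and Rsad2 were above 0 without normal replicate 1, at 0.12, 0.25, 0.63 and 0.48, where Isg15 was at -0.11.

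**Figure D4:**
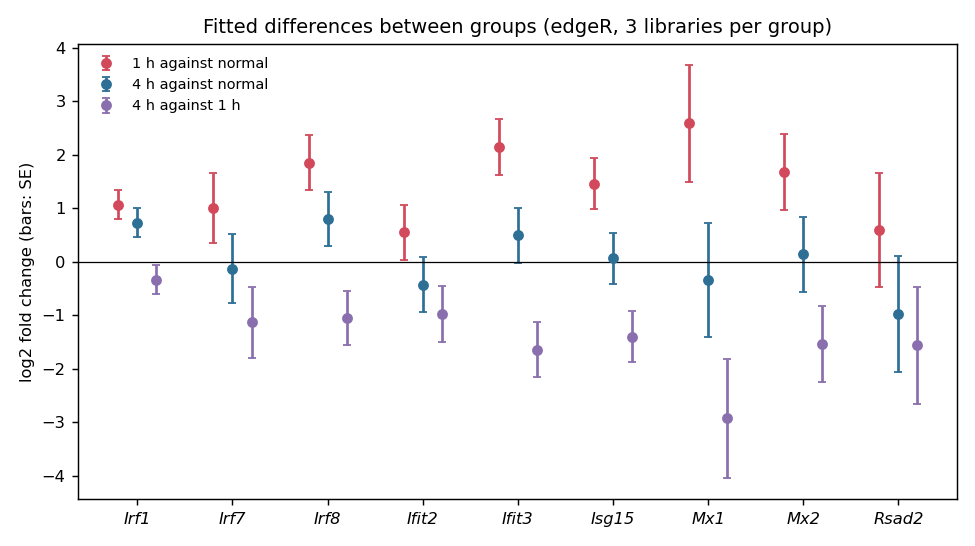
Fitted log2 fold changes of the 9 genes with their standard errors, for 1 h against normal (red), 4 h against normal (blue) and 4 h against 1 h (purple), 3 libraries per group. Every red point is above 0 and every purple point is below 0, while the blue points run from -0.97 to 0.80.

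Between the stages, all 9 members were lower at 4 h than at 1 h, by -0.34 to -2.93 on the log2 scale, where 46.4% of all genes were above 0. This contrast shares the libraries at 1 h with the early one, so the pair are not independent. None of the 9 was called, and of all genes 0% were, with the adjusted p at 0.856 for each member, and DESeq2 also called 0. At an unadjusted p under 0.05, 3 members were lower (Ifit3, Isg15 and Mx1), where 1.25% of all genes were, and 0 were higher, where 1.33% were, which makes 2.58% in both directions. The libraries at 4 h lay below all those at 1 h in 3 members (Ifit2, Ifit3 and Isg15), where 3.04% of all genes did, and above them in 0, where 3.2% did. For Ifit3 the log2 fold change was -1.65 (SE 0.51, unadjusted p = 0.0120), and it ran from -2.03 to -1.26 when single libraries were left out, with an unadjusted p under 0.05 in 9 of 9 fits. For Isg15 it was -1.40 (SE 0.48), against -0.89 without replicate 1 at 1 h. For Mx1 it was -2.93 (SE 1.12), against -1.50 without that library.

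Across the 9 libraries the members fell into sets with like patterns, as measured by Pearson's r of log2 CPM. The libraries share groups, depth and tissue composition, so these values describe likeness and are given without p. Mx1 and Mx2 were the closest pair at r = 0.979, followed by Irf7 with Mx2 at 0.962 and Irf7 with Mx1 at 0.934. These were 0.952, 0.956 and 0.887 without replicate 1 at 1 h, and at 0.979, 0.977 and 0.947 after each group's mean was removed. Isg15 had r = 0.815 with Mx2, but 0.522 without replicate 1 at 1 h. Ifit2 and Rsad2 had r = 0.903. Irf1 had r = 0.836 with Irf8 and 0.812 with Ifit3, and these were 0.651 and 0.718 after group means were removed. Irf7 and Irf8 had r = -0.218, and -0.744 after group means were removed, and within the group at 1 h Irf7 was lowest and Irf8 highest in replicate 2, with the reverse in replicate 1.

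**Figure D5:**
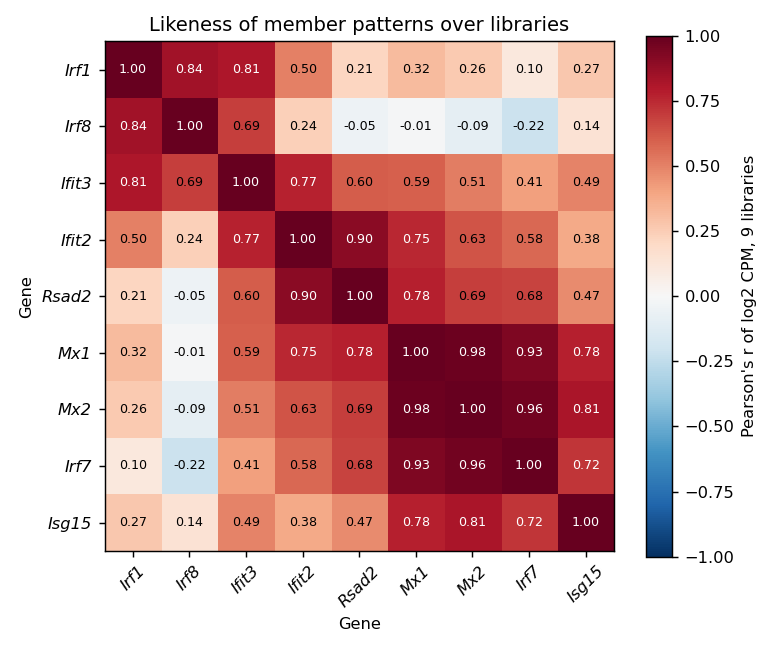
Pearson's r of log2 CPM over the 9 libraries for each pair of members, on a colour scale from -1 (blue) to 1 (red). Mx1, Mx2 and Irf7 form a block with r from 0.934 to 0.979, and Irf1 and Irf8 are joined at 0.836 with values between -0.218 and 0.315 against that block.

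Among 10433 other named genes with a mean of at least 5 CPM, those most like Irf1 were Irak2, a kinase of Toll-like and IL-1 receptor signalling (r = 0.973), Slc7a6 (0.962), Ptp4a1 (0.955), Map3k8, a kinase of the MAP kinase cascade (0.954), and Arl5b (0.954). Irak2 averaged 9.92 CPM in normal artery and 31.9 CPM at 1 h, and Map3k8 averaged 7.29 and 39.5 CPM. Those most like Irf8 were Ptpn2, a phosphatase that acts on JAK kinases (0.962), Crem (0.960), Sbno2 (0.953), Ell2 (0.949) and Itpkc (0.946). Irf7 was closest to Ppargc1a (0.976) and to the interferon-stimulated gene Oasl2 (0.955), then Cept1 (0.921), Nwd2 (0.916) and Ces1d (0.912). Rsad2 was closest to Aldh5a1 (0.992), Acvr2a (0.985), D2hgdh (0.983), Tapbp (0.979) and Tldc1 (0.977).

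The rest of the pathway was read from lists that held 131 other genes, of which 124 were in the table and 112 were tested. At 1 h, 0 of the 112 were called, while 11 were higher and 11 lower by the unadjusted rule, which 16.7% of all genes passed, and the median log2 fold change was 0.18. At 4 h, 0 were called, 3 were higher and 12 lower, where 5.07% and 7.35% of all genes were. The median was -0.30, and 31 of the 112 were above 0, where 52.3% of all genes were. From 1 h to 4 h, 0 were called, 1 was higher and 16 were lower, where 1.33% and 1.25% of all genes were, with a median of -0.51 where that of all genes was -0.040. DESeq2 called 7 of them at 1 h, where it called 4.44% of all genes, 7 at 4 h, where it called 3.91%, and 0 between the stages.

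Of the receptor signalling genes, Jak1 was at 182, 169 and 165 CPM in normal rats, at 258, 256 and 258 CPM at 1 h, and at 197, 211 and 265 CPM at 4 h. It lay above the normal group at both stages, with a log2 fold change of 0.58 at 1 h (SE 0.18, adjusted p = 0.232). Tyk2, the kinase of the type I receptor, was below the normal group at both stages, with values of -0.60 (SE 0.21) and -0.55 (SE 0.21). Irf9, the DNA-binding part of the complex that reads the ISRE, was at 31.1 ± 4.66 CPM in normal rats, 33.0 ± 4.68 CPM at 1 h and 21.7 ± 3.67 CPM at 4 h (SD, n = 3 each). Its level at 4 h lay below all libraries of both other groups.

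Of the other interferon regulatory factors, Irf2, which competes with Irf1 for its sites, was at 33.3, 33.5 and 28.9 CPM in normal rats, at 19.8, 25.9 and 21.7 CPM at 1 h, and at 24.9, 22.8 and 19.3 CPM at 4 h. Both ischemic groups were wholly below the normal one, which is the reverse of Irf1, with log2 fold changes of -0.51 (SE 0.18, adjusted p = 0.270) and -0.52 (SE 0.18, adjusted p = 0.307). Of the Irf2-binding corepressors, Irf2bp1 was lower at both stages, from 27.7 ± 1.94 CPM to 13.3 ± 5.57 and 11.7 ± 1.36 CPM (SD, n = 3 each, adjusted p = 0.218 and 0.154). Irf2bp2 was higher at 4 h, at 208 ± 80.9 CPM against 71.0 ± 15.9 CPM (SD, n = 3 each, log2 fold change 1.55, SE 0.40, adjusted p = 0.181). Among sensors and adaptors, Traf6 was higher at both stages (log2 fold changes 0.96, SE 0.31, and 1.22, SE 0.31), while Ticam1, the adaptor of Toll-like receptor 3, was lower (-0.92, SE 0.30, and -0.93, SE 0.30). Tlr4 was lower too, by -1.18 (SE 0.49) and -1.58 (SE 0.50), with 11 to 33 counts per library in ischemic artery.

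Of the other interferon-stimulated genes, Cxcl10, a chemokine for activated T cells, was at 0.89, 0.36 and 0.15 CPM in normal rats, which is 16, 5 and 2 counts, at 3.27, 6.61 and 10.7 CPM at 1 h, and at 1.90, 4.22 and 4.88 CPM at 4 h. It lay above all normal libraries at both stages, with a log2 fold change of 3.82 at 1 h (SE 0.75, adjusted p = 0.146) and 2.92 at 4 h (SE 0.73, adjusted p = 0.169). Pml, which forms nuclear bodies, was lower in each ischemic group and lowest at 4 h, at 30.6 ± 3.21 CPM in normal rats, 22.3 ± 1.51 CPM at 1 h and 15.6 ± 2.003 CPM at 4 h (SD, n = 3 each), with a log2 fold change of -0.97 at 4 h (SE 0.18, adjusted p = 0.0789). Samd9l, an antiviral factor, was at 39.6 ± 2.89, 21.7 ± 3.94 and 21.7 ± 5.54 CPM (SD, n = 3 each), below the normal group at both stages. Of the 57 tested genes of this list, by the unadjusted rule 4 were higher and 4 lower at 1 h, where 7.98% and 8.67% of all genes were. The counts at 1 h lay near the shares over all genes. At 4 h 1 was higher and 5 were lower, where 5.07% and 7.35% of all genes were. From 1 h to 4 h 0 were higher and 8 were lower, where 1.33% and 1.25% of all genes were. In that contrast 48 of the 57 were below 0, where 46.4% of all genes were above 0, and 0 were called.

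Antigen presentation genes that Irf1 and interferon gamma are known to induce numbered 12. By edgeR 0 of them were called, where 0.0581% of all genes were at 1 h and 0.0904% at 4 h. At an unadjusted p under 0.05 there were 0 at 1 h and 0 at 4 h, where 16.7% and 12.4% of all genes passed. A count of 0 among 12 genes does not show that they did not respond. Their median log2 fold change was 0.055 at 1 h and -0.31 at 4 h, where those of all genes were -0.0076 and 0.027. At 4 h 11 of the 12 were below 0, where 52.3% of all genes were above 0. Nlrc5, the activator of MHC class I genes, was at 8.55 ± 3.12, 12.4 ± 2.74 and 7.46 ± 1.38 CPM, and Ciita, that of class II genes, was at 1.35 ± 1.83, 2.52 ± 2.44 and 0.26 ± 0.19 CPM in normal rats, at 1 h and at 4 h (SD, n = 3 each). Tap2 was at 0.99 ± 0.56, 1.96 ± 0.61 and 0.71 ± 0.76 CPM. Of 10 feedback inhibitors, which include Isg15, 5 were higher and 1 lower at 1 h by the unadjusted rule, where 7.98% and 8.67% of all genes were, with a median of 0.87. Cish was at 5.82, 2.92 and 1.77 CPM in normal rats, at 25.2, 13.02 and 15.8 CPM at 1 h, and at 1.57, 4.14 and 6.93 CPM at 4 h. At 1 h its libraries were all above the normal ones, and the fitted difference was 2.35 on the log2 scale (SE 0.62, adjusted p = 0.212). Socs3, which blocks JAK signalling, was at 17.9, 13.3 and 7.45 CPM in normal rats, at 16.5, 237 and 147 CPM at 1 h, and at 15.3, 15.2 and 53.1 CPM at 4 h. Like Irf8 it was high in replicates 2 and 3 at 1 h, and replicate 1 lay within the normal range (log2 fold change 3.37, SE 0.94, adjusted p = 0.222). Ifngr1 was 0.85 higher on the log2 scale at 1 h (SE 0.35, adjusted p = 0.293) and Ifnlr1 was -1.26 at 4 h (SE 0.60, adjusted p = 0.441).

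Blood cell markers were read beside these results. The summed level of 11 neutrophil genes was 6.49 to 13.03 CPM in normal rats, 18.8 to 82.7 CPM at 1 h and 3.80 to 52.5 CPM at 4 h. Lcn2 made up most of it at 1 h, at 12.03, 67.2 and 77.7 CPM, and Fpr1 and Elane had 0 counts in every library. S100a9 was at 0 to 0.22 CPM in normal rats, at 0.47 to 0.80 CPM at 1 h and at 0 to 0.99 CPM at 4 h. S100a8 and Mmp8 had 0 counts in all normal libraries, 1 to 6 counts in each library at 1 h and 0 to 7 counts at 4 h. Mpo, Csf3r, Cxcr2, Mmp9 and Ngp overlapped between normal rats and 1 h. Mpo was at 2.52, 0.80 and 0.44 CPM in normal rats and at 5.01, 0.53 and 1.90 CPM at 1 h. The 13 lymphocyte genes summed to 8.38 to 59.0 CPM in normal rats, 9.42 to 58.3 CPM at 1 h and 5.78 to 12.2 CPM at 4 h, and Cd79a had 0 counts throughout. The 10 dendritic cell genes summed to 41.6 to 69.5, 44.2 to 56.8 and 25.2 to 44.1 CPM in the same order. Tcf4 (10.1 to 36.2 CPM over the 9 libraries) and Zbtb46 (10.7 to 19.8 CPM) led these sums. Up to 4 of the 10 genes had 0 counts in a library. The part of these cells in the levels of the members was not tested beyond the fit with macrophage and lymphocyte markers.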

How the data were processed

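RNA of 9 SMAs was extracted with Trizol and sequenced from Illumina libraries per the labels. The authors deposited raw counts per gene symbol. Their processing notes name HISAT2, while the published methods describe Agilent microarrays and do not cover this table. The counting program, genome build, annotation and use of strand are not given in the sources used here, so reads of related genes (Mx1 and Mx2, Ifit2 and Ifit3) or of antisense genes may be shared. Each column matched the title of 1 sample, and 13156 symbols had no count. No library was a copy of another, since the lowest chi-square per gene between any pair was 29.8.

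Genes were filtered with filterByExpr, scaled by TMM and tested across the whole table with edgeR 4.0.16 (quasi-likelihood F-test, R 4.3.3, group as the only term, all 9 libraries), with Benjamini-Hochberg adjustment over 15482 genes. This count test stood in for the study's random variance F-test, at the same thresholds (adjusted p under 0.05, fold change over 1.5). The common biological coefficient of variation was 51.6%. Standard errors are the log2 fold change divided by the square root of F. Log2 CPM used a prior count of 2. Alternatives were DESeq2 1.42.0, other scalings, no filter, pairs of groups, a replicate block, covariates and leaving out each library. The labels give separate samples and do not pair the rats, so p-values measure the spread between these samples.

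The members and lists were chosen with earlier results of these data known. Named are the 9 members, in each list the 3 tested genes with the smallest p over the 3 groups (for the receptors Ifnlr1, Ifngr1 and Il10rb, the last at -0.089 on the log2 scale at 1 h and -0.63 at 4 h), and for Irf1, Irf7, Irf8 and Rsad2 the 5 genes with the highest r. Interferon genes and single markers were named after their values were seen. Some genes of the pathway are not reported here.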

Additional observations from a re-analysis of the deposited data

How the results depend on the processing

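No member and no other pathway gene was called by edgeR in any contrast under any alternative, including each fit without 1 library. DESeq2 called 3 members at 1 h (Irf1, Irf8 and Ifit3) and 2 over the 3 groups (Irf1 and Ifit3), 7 other pathway genes at 1 h and 7 at 4 h, where it called 4.44% of all genes at 1 h, 3.91% at 4 h and 4.32% over the 3 groups. Irf1, Irf8 and Ifit3 at 1 h, and Ifit3 at 4 h against 1 h, kept an unadjusted p under 0.05 in all 9 fits without 1 library and all 8 other alternatives. Members at an unadjusted p under 0.05 at 1 h numbered 3 without replicate 1 at 1 h or with the nerve score, where 1788 of 15878 and 1485 of 15482 genes passed. They numbered 4 to 7 under the other alternatives, where the genes that passed ran from 1267 of 15752 to 4146 of 15482. Of 459 single-gene values under alternatives, 19 had the opposite sign, and the cause was not tested. At 1 h these were Ifit2 (-0.044) and Rsad2 (-1.21) with the nerve score. At 4 h they were, with the leukocyte score, Ifit2 (0.17), Irf7 (0.28), Isg15 (-0.035), Mx1 (0.56) and Rsad2 (0.44), with library size as the only scaling, Isg15 (-0.097) and Mx2 (-0.058), and with the replicate block Mx1 (0.29). Library size alone moved the median of all genes to -0.15 at 4 h and -0.24 between the stages. Without single libraries the values at 4 h ran from -0.92 to 0.25 for Ifit2, -0.71 to 0.18 for Irf7, -0.11 to 0.27 for Isg15, -0.94 to 0.63 for Mx1, -0.32 to 0.46 for Mx2 and -2.67 to 0.48 for Rsad2. Same-numbered libraries deviated together in some pairs only, with r from -0.651 to 0.66 and over 0.1 in 4 of 9 pairs. Of the 9 libraries, 4 were closest to one of their own number. Tissue composition also enters these values, so they cannot tell whether equal numbers share a pairing or a batch. With the replicate block, 0 members were called and 4, 1 and 2 had an unadjusted p under 0.05 at 1 h, at 4 h and between the stages. In that fit 2781, 1759 and 387 of 15482 genes did so. Depth limits Mx1, Isg15 and Rsad2, which fell to 4, 31 and 6 counts.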

Other observations

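Ifit1, the family member beside Ifit2 and Ifit3, was among the listed pathway genes and was chosen for mention after its values were seen. It had 0 counts in normal replicates 1 and 2 and in replicate 2 at 1 h, and it reached 5.39 CPM in normal replicate 3. Replicate 1 at 1 h had 12.2 CPM and replicate 3 had 29.1 CPM, and the late group was at 0.91, 10.9 and 8.38 CPM at 4 h. Ifit3 was well detected in each library where Ifit1 was at 0, at 7.10, 3.21 and 20.6 CPM. Reads of Ifit1 may be shared with near-identical copies, so its level is uncertain (log2 fold change at 1 h 2.95, SE 2.14, adjusted p = 0.459).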
